A study of Bos taurus with 56 samples.

Results

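Steroid hormone receptors were followed as RNA in epithelial cells of the bovine oviduct. The members were PGR (progesterone receptor), ESR1 and ESR2 (oestrogen receptors alpha and beta), NR3C1 (glucocorticoid receptor), NR3C2 (mineralocorticoid receptor), and PGRMC1 and PGRMC2 (membrane components that bind progesterone or haem). They were chosen by symbol. Of the 7 listed symbols, 6 had a row among the 31903 genes of the count table, and PGRMC1 was not analysed here.

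PGR, ESR1, ESR2, NR3C1 and NR3C2 are ligand-activated transcription factors of the nuclear receptor family. Chaperones hold them ready for hormone, and once hormone is bound they act on target genes together with coregulators. In the oviduct, oestrogen acts before ovulation through ESR1 and ESR2, and progesterone from the corpus luteum (CL) acts after it through PGR. They act on secretion, ciliary beat and muscle tone while gametes and the early embryo pass. PGRMC2 is a membrane protein of another family and is not a nuclear receptor.

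The comparisons ask whether receptor RNA in these cells differed with milk production, with the side on which the animal had ovulated and with the stretch of the oviduct. Cells were gently scraped from the ampulla, where fertilization takes place, and from the isthmus, the narrower part toward the uterus. Both oviducts were sampled, the one on the side of the CL (ipsilateral) and the other (contralateral). All 14 animals were Holstein. The heifers (n = 5) had not calved. The non-lactating cows (n = 5) were dried off at calving and never milked, and the lactating cows (n = 4) were milked every day. All cows had calved once and were about 60 days post-partum. Estrus was synchronized in every animal with a progesterone device, prostaglandin and the GnRH agonist buserelin, and all were slaughtered on Day 3 after estrus. Each animal gave 4 libraries, so that 56 libraries in 12 conditions (metabolic group, region and side) were measured.

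The libraries held 1901454 to 6836850 counts on genes (median 4931502.5). The member with the lowest count in any library was NR3C2 with 50. Levels are CPM, the counts of a gene relative to all counts on genes of its library, with the library totals scaled by the TMM method over all 56 libraries. Since CPM takes no account of transcript length, levels were compared between samples and never between genes. Ciliated cell markers were abundant throughout, with a summed level of 10 markers from 2943 to 6942 CPM, and the 3 red blood cell markers summed to at most 0.720 CPM. Letters name the animals within a group. In a check of identity over 200 genes, 52 libraries resembled the other libraries of their own animal (r of at least 0.476). The other 4, all from the ipsilateral ampulla, did not. The 200 genes were those that varied most between animals relative to within them, by the same labels and in the same libraries. A match to the own animal was thus favoured and does not by itself show that a label is right. The library labelled non-lactating with the number of lactating cow B resembled non-lactating cow C (r = 0.70), and the library labelled lactating with the number of non-lactating cow C resembled lactating cow B (r = 0.85). Each of these 2 libraries thus resembled an animal of the group on its label. The library labelled heifer B resembled non-lactating cow B (r = 0.69 against 0.35 for its own animal), and that labelled non-lactating B resembled heifer B (r = 0.54 against 0.46). Tests of the receptors and of their pathway genes that use the ipsilateral ampulla were therefore also run without these 4 libraries. No isthmus library was in doubt by this check.

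**Figure D1:**
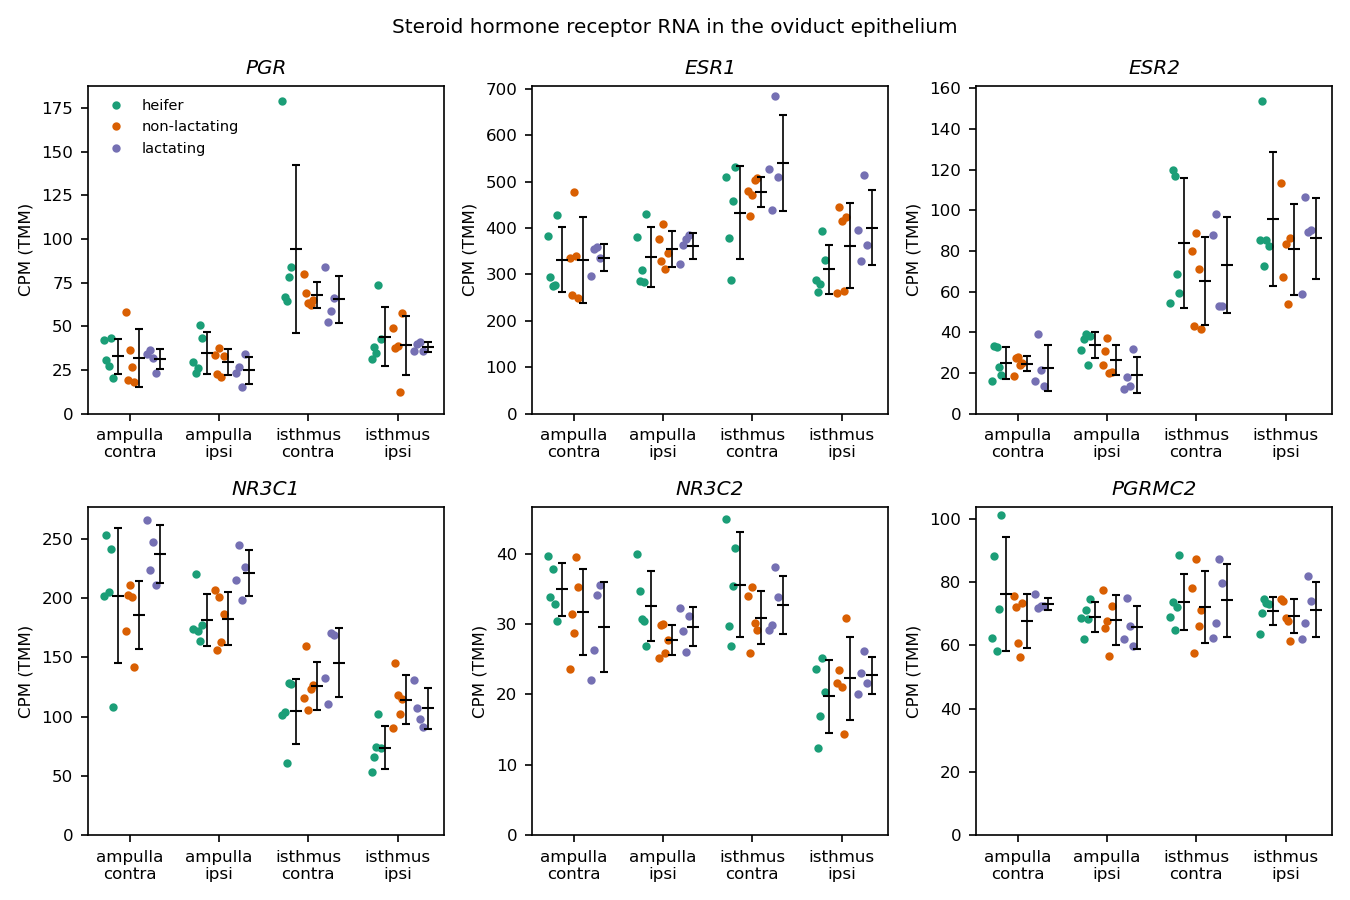
Level (CPM, linear axis from 0) of each receptor in every library, by region and side (contra, contralateral; ipsi, ipsilateral) and coloured by metabolic group; bars are the mean and SD of a group (n = 5, 5 and 4). PGR stands highest in the contralateral isthmus, ESR2 is higher and NR3C1 lower in isthmus than in ampulla, and PGRMC2 stays between 56.4 and 101 CPM in all 56 libraries.

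In the isthmus the nuclear receptors differed between the sides. With the metabolic groups together, PGR, ESR1, NR3C1 and NR3C2 were lower on the side of the CL, and ESR2 and PGRMC2 did not pass the test. Thus 4 of 6 members were called lower and 0 higher by the quasi-likelihood F test of edgeR, a gene being called where its p, adjusted after Benjamini and Hochberg, was under 0.05. For comparison, 28.4% of the 15031 genes tested were called, and 13.5% of the genes tested were called lower. Since the samples are bulk RNA, fewer cells of a type and less RNA per cell cannot be told apart.

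PGR showed the largest side difference of the 6. In the contralateral isthmus its level was 179, 66.6, 64.4, 78.0 and 84.2 CPM in heifers A to E, 80.2, 68.9, 63.6, 62.2 and 64.8 CPM in non-lactating cows A to E, and 84.2, 52.7, 58.8 and 66.0 CPM in lactating cows A to D. The ipsilateral isthmus of the same animals held 31.0, 38.2, 34.5, 73.5 and 42.8 CPM in heifers, 49.1, 37.5, 38.7, 12.5 and 57.4 CPM in non-lactating cows, and 35.6, 39.9, 40.9 and 36.1 CPM in lactating cows. All 14 animals were lower on the side of the CL, but the sides overlapped through heifer D and non-lactating cow E, whose ipsilateral levels reached the contralateral range. Heifer A stood far above all other libraries on the contralateral side, and non-lactating cow D was the lowest of all on the ipsilateral side. The mean was 40.5 ± 13.7 CPM ipsilaterally and 76.7 ± 31.0 CPM contralaterally (SD, n = 14 each), a log2 fold change of -0.92 (SE 0.17, edgeR adjusted p = 1.89e-04), or 1.89-fold lower. When animals were omitted one at a time, the log2 fold change lay between -0.99 and -0.75 and the call was kept each time.

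The mineralocorticoid receptor NR3C2, which binds aldosterone and cortisol alike, ranged from 25.9 to 44.9 CPM (median 32.0) in the contralateral isthmus and from 12.3 to 30.9 CPM (median 21.6) in the ipsilateral isthmus. It was lower ipsilaterally in 13 of 14 animals, the exception being non-lactating cow E, and the sides overlapped only in the range from 25.9 to 30.9 CPM. The mean of 21.5 ± 4.76 CPM against 33.1 ± 5.45 CPM (SD, n = 14 each) gave a log2 fold change of -0.64 (SE 0.11, edgeR adjusted p = 8.98e-05), 1.56-fold lower.

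ESR1, which transmits most of the growth response to oestrogen in the female tract, ranged from 287 to 684 CPM (median 492) contralaterally and from 260 to 515 CPM (median 348) ipsilaterally. Its level was lower on the side of the CL in 13 of 14 animals, and the ranges of the sides overlapped widely. The log2 fold change was -0.45 (SE 0.10, edgeR adjusted p = 1.29e-03), from 480 ± 88.8 to 355 ± 79.8 CPM (SD, n = 14 each). NR3C1, the receptor for cortisol, had the smallest called difference. It ranged from 61.2 to 171 CPM contralaterally (mean 124 ± 29.1, SD, n = 14) and from 53.4 to 146 CPM ipsilaterally (mean 97.7 ± 25.5, SD, n = 14), and 12 of 14 animals were lower ipsilaterally. Its log2 fold change was -0.36 (SE 0.11, edgeR adjusted p = 0.0144).

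ESR2, the second oestrogen receptor, went the other way without passing the test. Its level ranged from 41.8 to 120 CPM (median 70.0) contralaterally and from 53.7 to 154 CPM (median 85.4) ipsilaterally, and it was higher ipsilaterally in 10 of 14 animals. The log2 fold change was 0.23 (95% confidence interval -0.08 to 0.55, edgeR adjusted p = 0.274). PGRMC2 had a median of 71.7 CPM on both sides and a log2 fold change of -0.07 (95% confidence interval -0.20 to 0.06, edgeR adjusted p = 0.456).

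**Figure D2:**
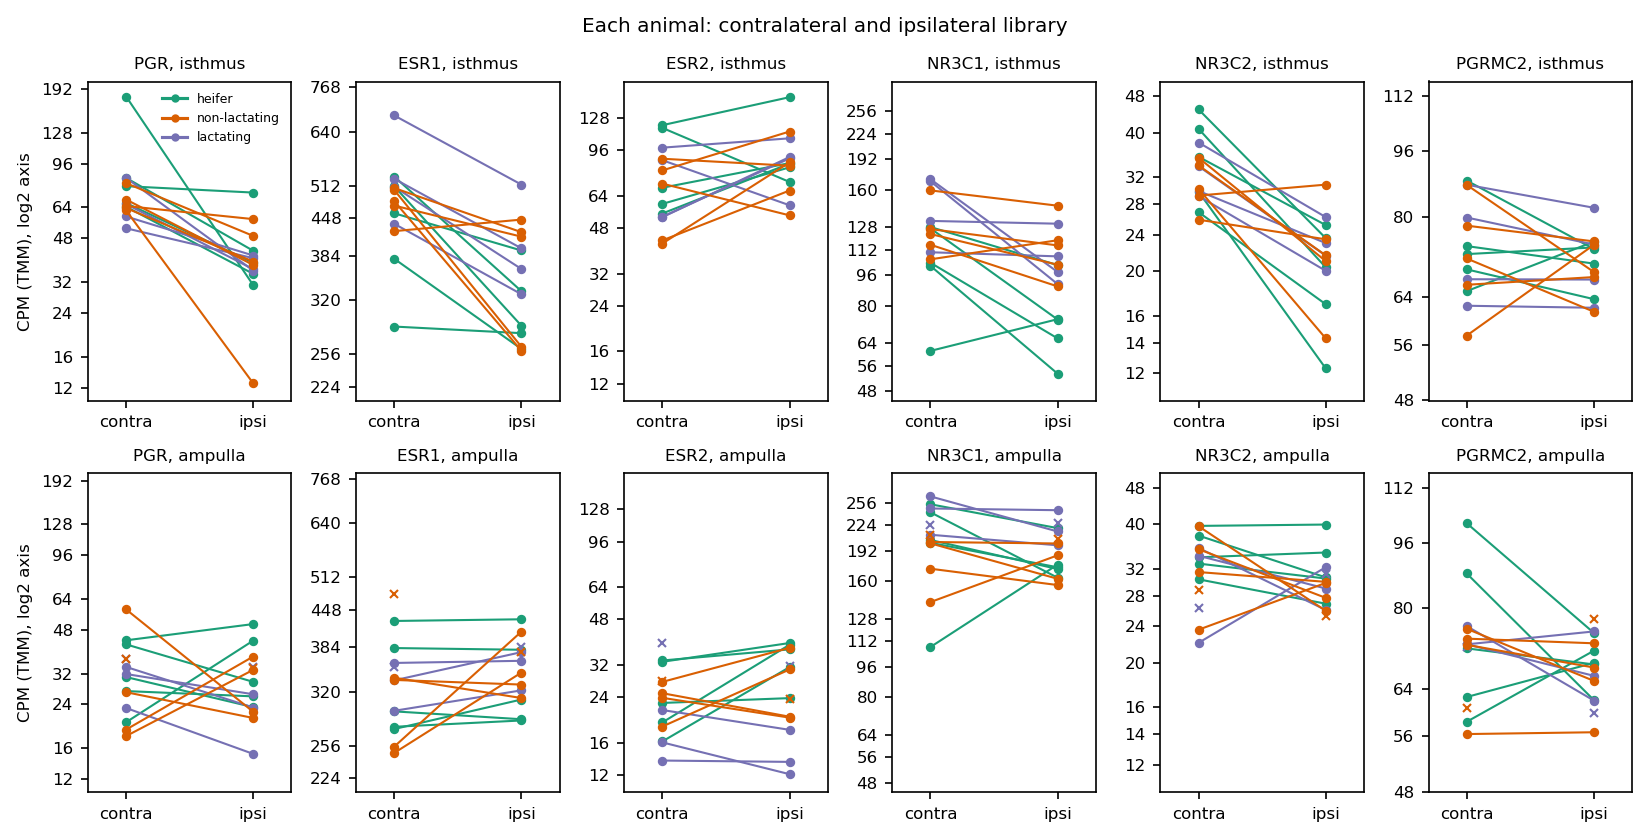
Level of each receptor (CPM, log2 axis) on the contralateral and ipsilateral side, with a line for each animal, in the isthmus (upper row) and the ampulla (lower row); crosses are ampulla libraries without a partner of the same number and group. In the isthmus all 14 lines of PGR and 13 of 14 lines of ESR1 and of NR3C2 run downward, whereas the lines of the ampulla cross.

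Within single metabolic groups the isthmus gave fewer calls. In heifers 2 of 6 members were called lower, against 10% of 13548 genes called and 4.34% called lower. These were PGR, with a log2 fold change of -1.12 (SE 0.31, edgeR adjusted p = 0.0378), and NR3C2, with -0.88 (SE 0.21, edgeR adjusted p = 0.0203). NR3C2 was 44.9, 29.8, 26.9, 35.5 and 40.8 CPM contralaterally and 23.6, 12.3, 17.0, 25.2 and 20.4 CPM ipsilaterally in heifers A to E. All 5 ipsilateral levels lay below all 5 contralateral levels. Both calls were kept with the animal as a block (PGR adjusted p = 0.0231, NR3C2 0.00409) and by DESeq2 (0.00364 and 0.00186). When single heifers were omitted from the edgeR test, PGR lost the call without heifer A with a smaller log2 fold change (-0.66, adjusted p = 0.121), and without heifer B (-1.17, 0.0857), C (-1.16, 0.0667) or E (-1.15, 0.129) with one as large as before. NR3C2 lost it without heifer A (-0.86, adjusted p = 0.0636) or E (-0.84, 0.109), its log2 fold change again being close to that of all 5 heifers. ESR1 (log2 fold change -0.50, adjusted p = 0.0739) was called with the animal as a block (adjusted p = 0.0245), by DESeq2 (0.0364) and without heifer C (0.0448).

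In non-lactating cows edgeR called 0 of 6 members in the isthmus, against 5.11% of 13869 genes. PGR had a log2 fold change of -0.82 (SE 0.28, adjusted p = 0.118), 3 members had an unadjusted p under 0.05, and DESeq2 also called 0. With the animal as a block PGR passed (log2 fold change -0.92, adjusted p = 0.0401). In lactating cows edgeR also called 0 of 6, against 0.187% of 13904 genes, with 4 members at an unadjusted p under 0.05. In both groups the count at an unadjusted p stands without the share of all genes at that p. It is therefore read as no result about the receptors. There PGR had a log2 fold change of -0.78 (SE 0.16, adjusted p = 0.101) and passed with DESeq2 (adjusted p = 3.39e-03) and with the block (0.0385), as did ESR1 with the block alone (log2 fold change -0.43, adjusted p = 0.0480).

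The values of PGR, ESR1 and NR3C2 were thus below 0 in each metabolic group. Without the block, edgeR made calls in heifers alone, and DESeq2 called members in heifers and PGR in lactating cows. With the animal as a block, which takes account of the pairing of the sides, PGR was called in all 3 groups (adjusted p = 0.0231, 0.0401 and 0.0385), ESR1 in heifers and lactating cows, and NR3C2 in heifers. The test of whether the side difference varied with the metabolic group called 0 of 6 members in the isthmus and 0 of 6 in the ampulla, with 0% of all genes called in either region, 0 members at an unadjusted p under 0.05 in either, and 0 called by DESeq2's likelihood ratio test.

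In the ampulla the sides did not differ by the test for any member. With the metabolic groups together edgeR and DESeq2 each called 0 of 6, 0 members had an unadjusted p under 0.05, and 4.99% of 15270 genes were called. PGR ranged from 17.9 to 58.0 CPM (median 31.4) contralaterally and from 15.2 to 50.7 CPM (median 28) ipsilaterally, with a log2 fold change of -0.10 (95% confidence interval -0.45 to 0.24). ESR1 had a log2 fold change of 0.07 (95% confidence interval -0.12 to 0.26), NR3C2 of -0.11 (95% confidence interval -0.29 to 0.07) and ESR2 of 0.12 (95% confidence interval -0.22 to 0.47). NR3C1 was lower ipsilaterally in 10 of 12 pairs, with a log2 fold change of -0.10 (95% confidence interval -0.29 to 0.09). Without the 4 libraries in doubt 0 members were called again, with a log2 fold change of -0.18 for PGR, -0.17 for NR3C1, 0.04 for ESR1 and -0.12 for NR3C2, while ESR2 turned to -0.03. Within heifers, non-lactating cows and lactating cows taken singly, 0 of 6 members were called in each, where 0%, 0.0947% and 0% of all genes were called.

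A side difference present in one region and not in the other was tested as an interaction over all 56 libraries. The side difference of the isthmus was below that of the ampulla for PGR by a log2 value of -0.82 (SE 0.24, edgeR adjusted p = 0.0302), for ESR1 by -0.52 (SE 0.14, edgeR adjusted p = 0.0177) and for NR3C2 by -0.52 (SE 0.14, edgeR adjusted p = 0.0176). These were 3 of 6 members, all in the lower direction, against 5.97% of 16060 genes called and 2.10% called lower. The interaction was not called for NR3C1 (-0.26, adjusted p = 0.355), ESR2 (0.10, adjusted p = 0.868) or PGRMC2 (0.03, adjusted p = 0.907). Without the libraries in doubt ESR1 (-0.50, adjusted p = 0.0445) and NR3C2 (-0.52, adjusted p = 0.0407) kept the call, and PGR lost it (-0.74, adjusted p = 0.0838). PGR also lost it without heifer A (-0.68, adjusted p = 0.0864), heifer E (-0.73, 0.0935), non-lactating cow B (-0.74, 0.0788) or non-lactating cow C (-0.82, 0.0548). It kept the call with the animal as a block (-0.80, adjusted p = 0.0238) and by DESeq2 (-0.81, 0.0176).

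Between the regions the receptors moved in opposite directions. On the ipsilateral side ESR2 and PGR had higher levels in the isthmus, and NR3C1 and NR3C2 were lower. On the contralateral side ESR2, PGR and ESR1 were higher and NR3C1 was lower. Thus 4 of 6 members were called on each side, where 50.3% of 15276 genes were called ipsilaterally and 43.5% of 15387 genes contralaterally, so the count itself is read as no result about the receptors. The comparisons within a side share no library with each other, but their libraries come from the same animals.

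ESR2 had the largest region difference. On the contralateral side it ranged from 13.7 to 38.9 CPM (median 23.4) in the ampulla and from 41.8 to 120 CPM (median 70.0) in the isthmus. On the ipsilateral side it ranged from 12.1 to 38.9 CPM (median 27.3) in the ampulla and from 53.7 to 154 CPM (median 85.4) in the isthmus. No isthmus library fell within the range of the ampulla on either side, and the isthmus was higher in 14 of 14 contralateral and 12 of 12 ipsilateral pairs. The log2 fold change was 1.61 (SE 0.17, edgeR adjusted p = 5.26e-09) contralaterally and 1.71 (SE 0.16, edgeR adjusted p = 3.26e-10) ipsilaterally, 3.05- and 3.26-fold higher. Without the libraries in doubt the ipsilateral value was 1.88.

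NR3C1 showed the reverse pattern. In the ampulla it ranged from 108 to 266 CPM (median 208) contralaterally and from 157 to 245 CPM (median 193) ipsilaterally. In the isthmus it ranged from 61.2 to 171 CPM contralaterally and from 53.4 to 146 CPM ipsilaterally. On the ipsilateral side the regions did not overlap and 12 of 12 pairs were lower in the isthmus, while on the contralateral side they overlapped through heifer E and non-lactating cow E, whose ampulla levels were the lowest, and 13 of 14 pairs were lower. The log2 fold change was -1.03 (SE 0.10, edgeR adjusted p = 6.79e-10) ipsilaterally and -0.75 (SE 0.12, edgeR adjusted p = 4.16e-06) contralaterally. Without the libraries in doubt the ipsilateral value was -0.97.

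By the interaction above, the region differences of ESR1, NR3C2 and PGR depended on the side. For PGR that call was lost without the libraries in doubt and without some single animals. The values of each side show the same contrast in the same libraries and add no second test of it. Contralaterally PGR was higher in the isthmus in 14 of 14 animals, with a log2 fold change of 1.24 (SE 0.17, edgeR adjusted p = 3.77e-07). Ipsilaterally the difference was 0.42 (SE 0.17, edgeR adjusted p = 0.0426), with 10 of 12 pairs higher. This second call was lost when heifer B or C, lactating cow A, C or D, or non-lactating cow A or E was left out (log2 fold change from 0.36 to 0.42, adjusted p from 0.0504 to 0.0959). It was kept without the libraries in doubt (0.51, adjusted p = 0.0315), with the animal as a block (0.43, adjusted p = 0.0150) and by DESeq2 (0.42, adjusted p = 0.0370).

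ESR1 was higher in the contralateral isthmus than in the contralateral ampulla by a log2 fold change of 0.52 (SE 0.10, edgeR adjusted p = 1.50e-04). On the ipsilateral side the difference was -0.01 (95% confidence interval -0.21 to 0.18). NR3C2 had the complementary pattern, with a difference of 0.03 (95% confidence interval -0.16 to 0.23) contralaterally and of -0.51 (SE 0.11, edgeR adjusted p = 2.04e-04) ipsilaterally. PGRMC2 differed by 0.02 (95% confidence interval -0.16 to 0.19) contralaterally and by 0.03 (95% confidence interval -0.08 to 0.15) ipsilaterally. Omission of the libraries in doubt gave ipsilateral values of 0.02 for ESR1, -0.49 for NR3C2, which kept its call (adjusted p = 0.00165), and 0.05 for PGRMC2.

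**Figure D3:**
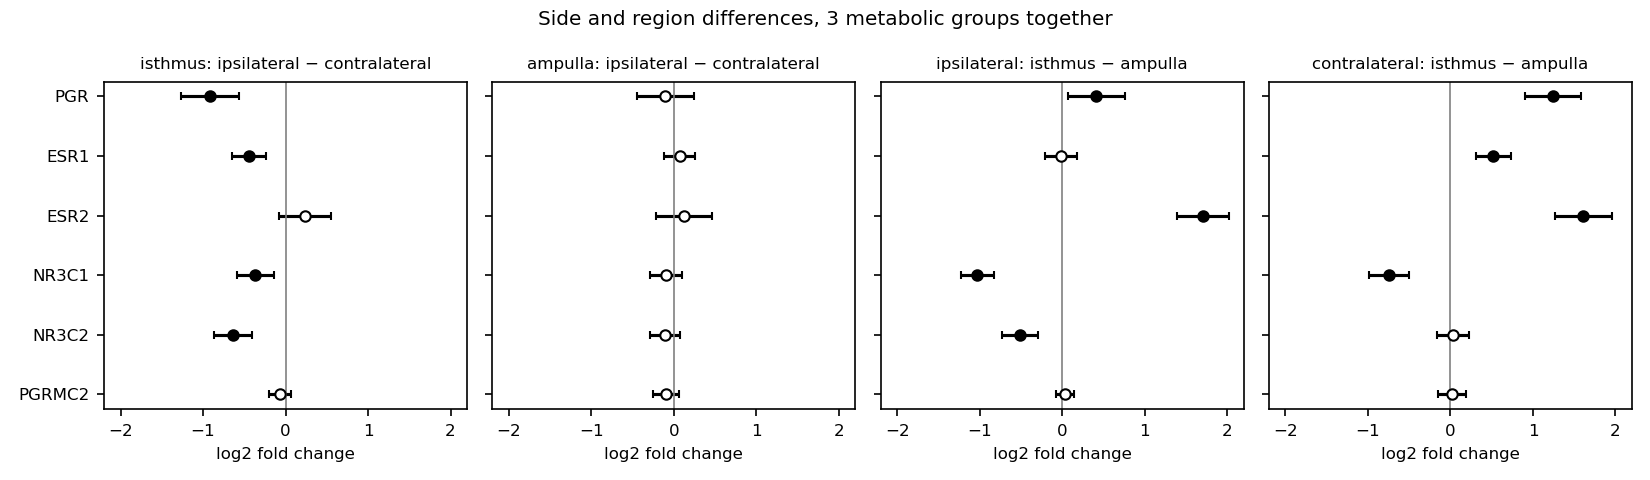
Log2 fold change of each receptor with its 95% confidence interval for the side difference in the isthmus and in the ampulla and for the region difference on each side, over the metabolic groups together; filled points passed the test at an adjusted p under 0.05. In the isthmus 4 receptors lie below 0 for the side, in the ampulla all 6 intervals span 0, and ESR2 and NR3C1 lie on opposite sides of 0 for the region.

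Across the 12 conditions, neighbours in the order of mean levels mostly lay closer together than the larger of their SDs. For PGR the only wider gap set the 3 contralateral isthmus conditions, the lowest of them at 65.4 ± 13.6 CPM (lactating, SD, n = 4), above all others, the next being 44.0 ± 17.0 CPM (heifer ipsilateral isthmus, SD, n = 5). For ESR2 the 6 isthmus conditions stood above the 6 ampulla conditions (65.0 against 33.8 CPM at the gap). For NR3C1 the 6 ampulla conditions stood above the 6 isthmus conditions (181 against 146 CPM), and the ipsilateral isthmus of heifers lay apart at the bottom (73.8 CPM, next 104 CPM). For NR3C2 the 3 ipsilateral isthmus conditions were lowest (22.7 CPM, next 27.7 CPM). ESR1 and PGRMC2 had no gap wider than the SD. Over all libraries the highest level exceeded the lowest 14.4 times for PGR, 12.7 times for ESR2 and 1.80 times for PGRMC2.

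Markers of cell types also moved with side and region. Their counts stand beside 28.4% of all genes called between the sides of the isthmus. Between the sides of the isthmus 3 of 5 epithelial markers were called higher ipsilaterally, with a summed level from 1094 to 1498 CPM (median 1274) contralaterally and from 1199 to 1865 CPM (median 1484) ipsilaterally. Of the ciliated markers 2 of 10 were called, 1 in each direction, and 2 of 6 secretory markers were called higher. Of the endothelial markers 1 of 4 was called lower, 0 of 6 fibroblast markers, 0 of 4 tested smooth muscle markers and 0 of 4 tested leukocyte markers were called. The endothelial sum had a median of 43.7 CPM contralaterally and 28.7 CPM ipsilaterally, and the smooth muscle sum one of 41.4 and 56.3 CPM. Among the endothelial markers KDR had the highest median there (24.0 CPM contralaterally, 10.9 CPM ipsilaterally). Among the smooth muscle markers it was MYH11 (24.5 and 44.7 CPM), so each sum gives most weight to 1 gene. Over the 28 isthmus libraries, which share animals, the endothelial sum had r = 0.81 with NR3C1, 0.76 with ESR1, 0.50 with NR3C2, 0.29 with PGR and -0.72 with ESR2. The smooth muscle sum had r = -0.73 with NR3C1, -0.63 with ESR1, -0.48 with NR3C2, -0.27 with PGR and 0.55 with ESR2. For the epithelial sum r was -0.69 with NR3C1, -0.50 with ESR1, -0.47 with NR3C2, -0.43 with PGR and 0.34 with ESR2. For the secretory sum it was 0.53 with NR3C1, 0.14 with ESR1, -0.10 with NR3C2, -0.05 with PGR and -0.29 with ESR2. That sum ranged from 609 to 19475 CPM contralaterally and from 847 to 15769 CPM ipsilaterally. It gives most weight to OVGP1, which ranged from 37.7 to 18708 CPM contralaterally and from 153 to 15024 CPM ipsilaterally. PAX8, another secretory marker, ranged only from 95.1 to 148 CPM and from 88.3 to 135 CPM. OVGP1 is also on the list of oestrogen response genes used below. The summed fibroblast level was 359 CPM in the contralateral isthmus of non-lactating cow A and 358 CPM in that of lactating cow A, against a median of 36.3 CPM, and the calls of PGR, ESR1, NR3C1 and NR3C2 over the metabolic groups together were kept with each of these animals left out.

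Between the regions 9 of 10 ciliated markers were called lower in the ipsilateral isthmus and 10 of 10 in the contralateral isthmus. The shares of all genes called were 50.3% ipsilaterally and 43.5% contralaterally. The ciliated sum was 4226 to 6514 CPM in the ipsilateral ampulla and 2943 to 4604 CPM in the ipsilateral isthmus. The smooth muscle sum was 13.7 to 35.3 CPM in the ipsilateral ampulla and 31.0 to 95.5 CPM in the ipsilateral isthmus, where MYH11 had a median of 44.7 CPM against 1.08 CPM while ACTA2 was lower in the isthmus (median 8.39 against 13 CPM). Of the 4 smooth muscle markers tested, 1 was called higher and 2 lower in the ipsilateral isthmus. Of the 4 endothelial markers 3 were called lower there, with a sum of 83.4 to 358 CPM in the ipsilateral ampulla and 11.4 to 54.4 CPM in the ipsilateral isthmus. KDR weighed most in this sum, with a median of 107 CPM in the ipsilateral ampulla and 10.9 CPM in the ipsilateral isthmus. The medians were 14.8 and 8.92 CPM for TEK, 3.74 and 1.79 CPM for PECAM1, and 4.30 and 4.10 CPM for VWF. With the libraries in doubt omitted, 8 of 10 ciliated and 3 of 4 endothelial markers were called lower, and 1 smooth muscle marker was called higher and 3 lower. The share of all genes called in that run was 46.8%. The part of these cell type markers in the side and region differences of the receptors was not tested.

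The metabolic groups were compared in pairs in each of the 4 tissues. In these 12 comparisons edgeR called 0 of the 72 member tests, of which 8 had an unadjusted p under 0.05, and DESeq2 called 1. No gene at all was called in 11 of the comparisons. When the ipsilateral isthmus of heifers was set against that of non-lactating cows, 0.00730% (1 gene) was called. Of the 13512 to 14077 genes tested in a comparison, 497 to 1619 had an unadjusted p under 0.05. The count of 8 member tests at that p is therefore read as no result about the receptors. Of the 8 member tests with a low unadjusted p, 6 belonged to NR3C1, 1 to ESR1 and 1 to ESR2.

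NR3C1 in the ipsilateral isthmus was 53.4, 65.9, 73.9, 102 and 73.8 CPM in heifers A to E, 89.9, 146, 118, 102 and 115 CPM in non-lactating cows A to E, and 131, 108, 98.0 and 91.1 CPM in lactating cows A to D. Heifer D lay among the cows, and the other 4 heifers lay below all cows. The log2 fold change against heifers was 0.64 (SE 0.17, unadjusted p = 0.00244, edgeR adjusted p = 0.189) for non-lactating cows and 0.56 (SE 0.18, unadjusted p = 0.00840, edgeR adjusted p = 0.336) for lactating cows. DESeq2 gave an adjusted p of 0.0378 for the former and 0.140 for the latter. Both comparisons use the same heifers.

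ESR2 in the ipsilateral ampulla was 31.4, 36.8, 38.9, 23.8 and 38.3 CPM in heifers A to E. In the lactating group it was 12.1, 18.0 and 13.5 CPM in cows A, C and D, and 31.7 CPM in the library with the number of non-lactating cow C. The 3 lower libraries lay below all heifers and the last lay among them. The log2 fold change of lactating cows against heifers was -0.83 (SE 0.27, unadjusted p = 0.00964, edgeR adjusted p = 0.515), and -1.18 (edgeR adjusted p = 0.268) without the libraries in doubt. The lactating library omitted there resembled lactating cow B (r = 0.85), an animal of its labelled group. Lactating cow B also had the highest ESR2 level of the lactating group in the contralateral ampulla (38.9 CPM, next 21.4 CPM). ESR1 in the ipsilateral isthmus had a log2 fold change of 0.39 (SE 0.16, unadjusted p = 0.0292, edgeR adjusted p = 0.435) for lactating cows against heifers. Over the 12 comparisons PGR ranged from -0.52 to -0.00219, NR3C2 from -0.23 to 0.23 and PGRMC2 from -0.15 to 0.11 on the log2 scale.

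Without the libraries in doubt the 3 comparisons of the ipsilateral ampulla again gave 0 calls among the members, and several values moved. Of the 4 omitted libraries, 2 resembled an animal of their labelled group, so these values are not a corrected estimate. PGR had a log2 fold change of -0.78 (unadjusted p = 0.0206, edgeR adjusted p = 0.507) for lactating cows against heifers, in place of -0.47, and of -0.55 (edgeR adjusted p = 0.972) for non-lactating cows against heifers, in place of -0.23. ESR2 had -0.70 (unadjusted p = 0.0255, edgeR adjusted p = 0.998) for lactating against non-lactating cows, in place of -0.48. NR3C1 had 0.38 (in place of 0.28) in that comparison and 0.36 (in place of 0.29) for lactating cows against heifers. ESR1 lay between -0.09 and 0.10 and NR3C2 between -0.19 and 0.07 in the 3 comparisons.

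**Figure D4:**
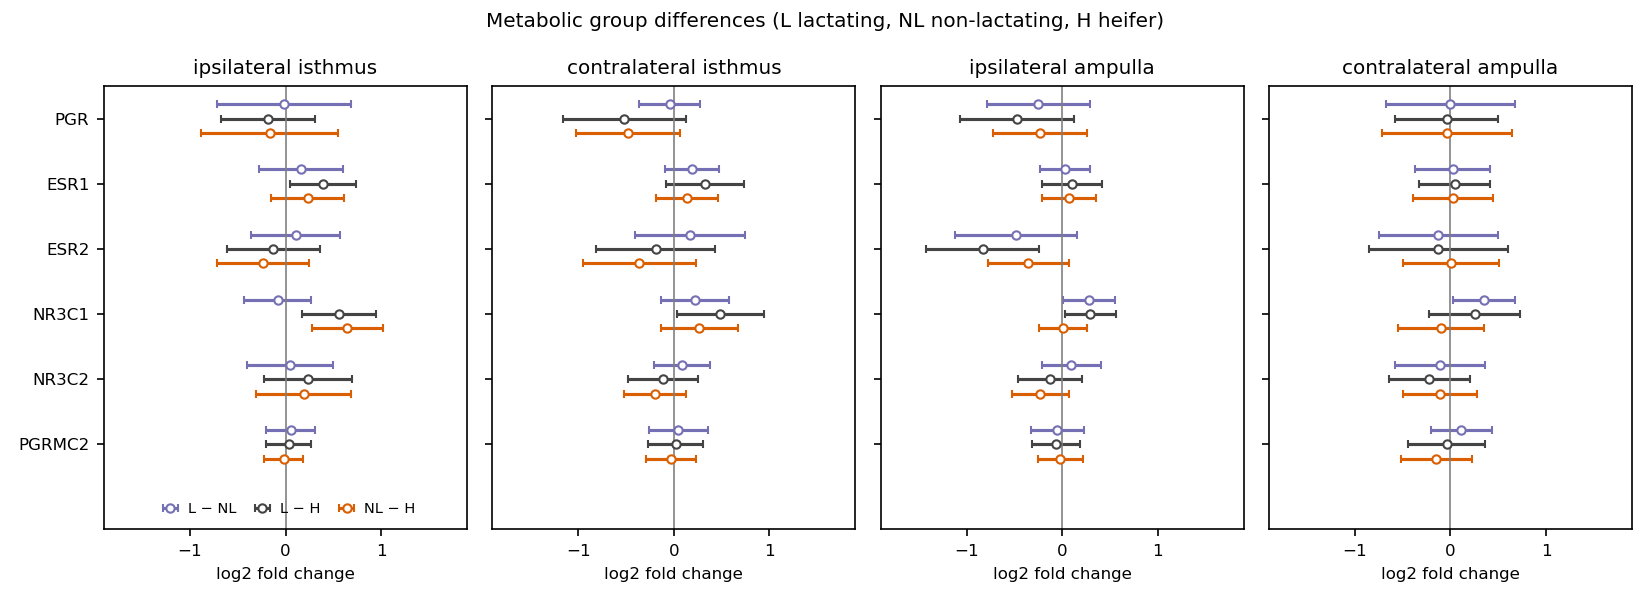
Log2 fold change of each receptor with its 95% confidence interval between metabolic groups (L, lactating; NL, non-lactating; H, heifer) in the 4 tissues; open points did not pass the test at an adjusted p under 0.05. No point is filled, and the intervals of NR3C1 against heifers in the ipsilateral isthmus lie above 0.

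The genes around the receptors were described in 8 lists of their pathway. In the isthmus, ipsilateral against contralateral with the metabolic groups together, the median log2 fold change of all genes tested was -0.01 and 28.4% of them were called. Receptor chaperones had 4 of 12 called, all higher, with a list median of 0.19. This count is near the share of all genes called and is read as no result about the list. HSPA8, the constitutive Hsp70, rose from 948 ± 162 to 1409 ± 261 CPM (SD, n = 14 each; log2 fold change 0.55, edgeR adjusted p = 8.55e-05), and its partner DNAJA1 by 0.45. PPID and STIP1, cochaperones of Hsp90, rose by 0.25 and 0.20 on the log2 scale.

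Coregulators had 4 of 16 called, all lower, with a list median of -0.09, against 28.4% of all genes called and 13.5% called lower. This count too is read as no result about the list. NCOA2 and NCOA3, members of the steroid receptor coactivator family, had log2 fold changes of -0.23 and -0.22, CREBBP, a histone acetyltransferase, of -0.27, and BCAS3 of -0.36. Among membrane and orphan relatives 3 of 6 were called, with a list median of -0.12. PAQR5, a membrane progestin receptor, fell from 13.3 ± 6.26 to 5.11 ± 3.48 CPM (SD, n = 14 each; log2 fold change -1.45, edgeR adjusted p = 5.84e-04), and the orphan receptor ESRRG fell by 0.83 while its relative ESRRA rose by 0.36 on the log2 scale. Of the pioneer and partner factors 1 of 8 was called, NR2F1, with 0.26, and the list median was -0.02. FOXA2 did not pass (-0.30, edgeR adjusted p = 0.0675).

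Steroid metabolising enzymes had 4 of 14 called, 3 higher and 1 lower, with a list median of 0.08. HSD11B2, which inactivates cortisol and thereby guards the mineralocorticoid receptor, rose from 2.58 ± 0.895 to 6.99 ± 2.41 CPM (SD, n = 14 each; log2 fold change 1.42, edgeR adjusted p = 2.15e-06). HSD17B10 and HSD17B8 rose by 0.52 and 0.35, and HSD17B11 fell by 0.29 on the log2 scale.

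Among oestrogen response genes 11 of 24 were called, 4 higher and 7 lower, with a list median of 0.01. The list includes PGR itself. GREB1, a widely used target of ESR1, fell from 77.1 ± 20.9 to 46.1 ± 16.4 CPM (SD, n = 14 each; log2 fold change -0.75, edgeR adjusted p = 2.90e-04). LTF, the iron-binding secreted protein lactoferrin, rose by 2.99 and AGR3 by 2.41 on the log2 scale, AGR3 from a mean of 1.14 CPM. AGR3 was near the floor contralaterally and could pass the filter through the ipsilateral libraries, which favours its call and its place among the tested genes. Progesterone response genes had 3 of 11 called, 1 higher and 2 lower, with a list median of -0.21. The transcriptional repressor BCL6 fell by 0.55 and HEY2 by 0.56, and AREG, an EGF-like growth factor, rose by 0.78 on the log2 scale. FKBP5, which steroid receptors induce and which in turn binds their Hsp90 complex, did not pass (0.28, edgeR adjusted p = 0.0632).

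Glucocorticoid and mineralocorticoid response genes had 6 of 17 called, 5 higher and 1 lower, with a list median of 0.20. SCNN1A, a subunit of the epithelial sodium channel, rose by 0.60 on the log2 scale. The metal-binding MT2A rose by 1.29 and GADD45G by 3.39 on the log2 scale, GADD45G from a mean of 1.17 CPM. Contralaterally GADD45G was near the floor and could pass the filter through the ipsilateral libraries, which favours its call and its place among the tested genes. The 1 gene called lower, named after its values were seen, was PDK4 with -1.10. In the ampulla the same side comparison called 1 of 6 relatives, 3 of 16 coregulators, 1 of 21 oestrogen response genes and 1 of 9 progesterone response genes. It called 0 of 12 chaperones, 0 of 8 pioneer and partner factors, 0 of 14 enzymes and 0 of 18 glucocorticoid and mineralocorticoid response genes. The background there was 4.99% of genes called. When the libraries in doubt were omitted, 1 of 16 coregulators and 1 of 9 progesterone response genes were still called and 0 of 7 relatives and 0 of 22 oestrogen response genes, against 2.43% of all genes.

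**Figure D5:**
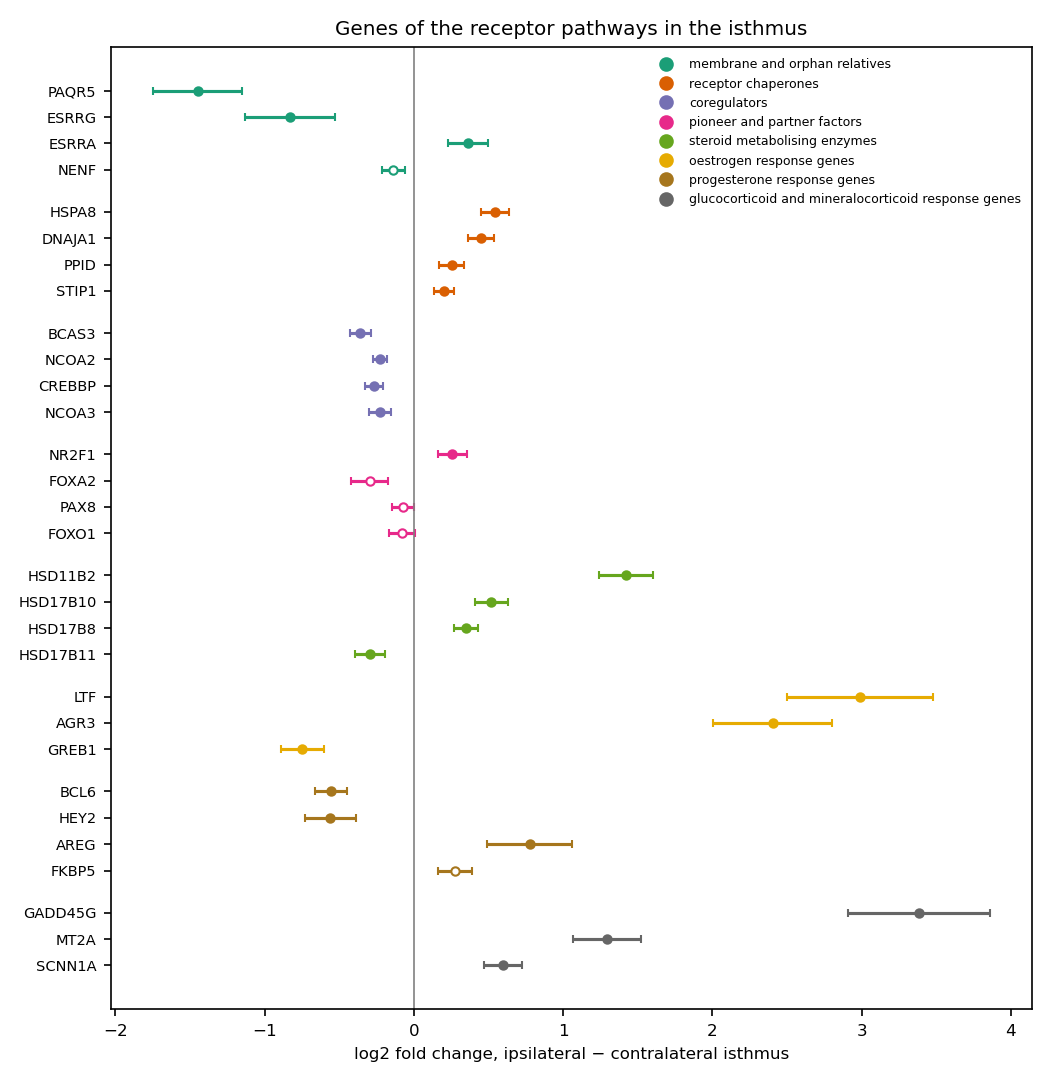
Log2 fold change (ipsilateral minus contralateral isthmus, metabolic groups together) with its standard error for up to 4 genes of each pathway list with the smallest p, the receptors left out; filled points passed the test at an adjusted p under 0.05. The plotted chaperones lie above 0 and the plotted coregulators below 0. These genes were picked by their p in this same comparison, so their direction does not stand for the whole lists. The response genes plotted lie on both sides, from -0.75 for GREB1 to 3.39 for GADD45G, which was near the floor contralaterally.

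Between ipsilateral isthmus and ampulla, where 50.3% of all genes were called and their median log2 fold change was -0.02, the progesterone response list had 10 of 10 tested genes called, 7 higher and 3 lower in the isthmus (list median 0.66). IHH, a signal that progesterone induces in the uterine epithelium, was at 0.624 ± 0.636 CPM in the ampulla and 35.2 ± 14.2 CPM in the isthmus (SD, n = 14 each; log2 fold change 5.78, edgeR adjusted p = 5.66e-14). In the ampulla IHH was near the floor, so it passed the filter through the isthmus libraries where it was high. Its adjusted p and its place among the tested genes are favoured by that. PTCH1, the receptor for IHH, rose by 1.08 and FKBP5 by 0.92, while BCL6 fell by 0.53 on the log2 scale. Of oestrogen response genes 14 of 22 were called (9 higher, 5 lower, list median 0.11), with TFF3 at 3.83, LTF at 3.99, MYC at -1.82 and SLC9A3R1 at -1.03.

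Glucocorticoid and mineralocorticoid response genes had 12 of 18 called, 6 in each direction (list median 0.12). ATP1B1 rose by 2.40 and SCNN1A by 1.71, and CRISPLD2 fell by 2.80 on the log2 scale from a mean of 3.2 CPM. CRISPLD2 was thus near the floor in the isthmus and could pass the filter through the ampulla libraries, which favours its call. Membrane and orphan relatives had 6 of 6 called (4 higher, 2 lower, list median 0.52), PAQR6 with 1.80, ESRRG with -1.55, PAQR8 with -0.63 and ESRRA with 0.73. Coregulators had 9 of 16 called (6 higher, 3 lower, list median 0.07). PPARGC1A rose by 1.58 and NCOA1 by 0.54, and NCOA3 fell by 0.72 and CARM1 by 0.64 on the log2 scale.

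Enzymes had 11 of 15 called (4 higher, 7 lower, list median -0.36), HSD17B10 with 1.14, HSD17B4 with -0.72, H6PD with -0.79 and HSD17B11 with -0.59. Chaperones had 8 of 12 called (3 higher, 5 lower, list median -0.16), FKBP5 as given, BAG1 with 0.44, STUB1 with 0.31 and FKBP4 with -0.30. Pioneer and partner factors had 4 of 8 called (1 higher, 3 lower, list median 0.04), SOX17 with 0.79, FOXA2 with -0.54, NR2F2 with -0.30 and PAX8 with -0.19. Without the libraries in doubt, where 46.8% of all genes were called, every gene called in the relatives, coregulators, partner factors, enzymes and the 3 response lists was called again in the same direction, and 1 enzyme was added (12 of 15). Of the 8 chaperones 6 were called again. The progesterone response list then had 11 genes tested, of which 10 were called (list median 0.50).

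The genes whose log2 CPM was most like that of a receptor over the 56 libraries were searched among 9624 genes with a symbol and a mean log2 CPM above 3. The libraries share animals and tissues, so the correlations below are descriptions. For PGR they were JMY (r = 0.85), SLMO1 (0.84) and LIX1 (0.81), and for ESR2 RHOBTB3 (0.94), MPPED2 (0.93) and SLC30A5 (0.93). For NR3C1 they were C3H1orf168 (0.93), CREBRF (0.92) and SAMD12 (0.92), for NR3C2 SGSM1 (0.74), CNNM3 (0.72) and NR1D2 (0.70), and for ESR1 LRIG1 (0.72), WLS (0.70) and SESTD1 (0.69). PGRMC2 had the lowest values, with RNF103 (0.59), BCL2L12 (0.55) and SDK1 (0.51). Among the members themselves ESR2 and NR3C1 had r = -0.79, PGR and ESR1 r = 0.59, and PGR and ESR2 r = 0.52.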

How the data were processed

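Single-end RNA-seq reads of 100 bases from 56 libraries were aligned by the authors with TopHat2 (version 2.0.13) to the bovine build Btau_4.6.1 and counted per gene on the annotated strand with htseq-count (HTSeq version 0.6.1). The deposited values are raw counts per gene in whole numbers, without normalization or filter. The 5 summary lines, which held 86.3 to 91.3% of counted alignments, entered no total and no test. Columns were assigned to groups by their names.

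R (4.3.3), edgeR (4.0.16) and DESeq2 (1.42.0) were used. Genes were kept by filterByExpr (minimum count 10), normalized by TMM and tested by edgeR's quasi-likelihood F test, with the metabolic group as a term where groups were fitted together. This filter can be passed by a gene that is high in 1 compared group and near the floor in the other. A gene was called at a Benjamini-Hochberg adjusted p under 0.05. SE is the log2 fold change over the root of F, and log2 CPM used a prior count of 2. There were 25 comparisons. DESeq2, RLE size factors, no filter, the animal as a block, omission of the 4 libraries in doubt and omission of each animal were the alternatives. The scripts were tested on simulated data.

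The labels give an animal number, so sides and regions of an animal are paired. In 26 side pairs the deviations from the group means correlated with a median r of 0.34, and 20 pairs exceeded 0.1. No 2 libraries of a condition agreed within sampling noise (104 pairs, chi-square over degrees of freedom 5.54 or more). The members and lists were chosen with earlier results of these data known. All members were named, and from each list the 4 genes with the smallest p in the isthmus side comparison and in the ipsilateral region comparison. A gene that this rule would name is not reported here. Of 137 pathway genes 131 had a row, and of 48 marker genes 47.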

Additional observations from a re-analysis of the deposited data

Results flagged for a closer look

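In 5 of the 72 groups of libraries tested (a receptor in a condition of 4 or 5 animals), 1 library stood far from the rest by Dixon's criterion, and chance alone gives about 1 in 20 groups. PGR was 179 CPM in the contralateral isthmus of heifer A, the next being 84.2 CPM, and 73.5 CPM in the ipsilateral isthmus of heifer D, the next being 42.8 CPM. ESR2 was 154 CPM in the ipsilateral isthmus of heifer B, the next being 85.6 CPM. NR3C1 was 220 CPM in the ipsilateral ampulla labelled heifer B, the next being 177 CPM, and that library is among the 4 in doubt. PGRMC2 was 76.2 CPM in the contralateral ampulla of lactating cow A, the next being 72.4 CPM. The side difference of the isthmus lay below that of the ampulla by a log2 value of -0.82 for PGR, -0.52 for ESR1 and -0.52 for NR3C2, each by a test of the difference itself. The call of PGR was lost without the 4 libraries in doubt (edgeR adjusted p = 0.0838). It was also lost without heifer A, heifer E, non-lactating cow B or non-lactating cow C. ESR1 and NR3C2 kept their calls in these runs.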

How the results depend on the processing

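Of the single-receptor values no called direction was reversed under any alternative run. RLE size factors and no filter changed no call of a member. The animal as a replicate block gave 1 call in the isthmus of non-lactating cows and 2 in that of lactating cows, in place of 0, and added ESR1 in heifers. It changed no other call. DESeq2 gave 1 call in the isthmus of lactating cows and 1 for non-lactating cows against heifers in the ipsilateral isthmus, in place of 0, and added ESR1 in the isthmus of heifers. With each animal left out, the calls in the isthmus of heifers ranged from 0 to 2 and those of the side by region interaction from 2 to 3. Omission of the 4 libraries in doubt changed 1 call, PGR in that interaction. The causes of these changes were not tested. Depth limits NR3C2, ESR2 and PGR most, whose lowest counts were 50, 57 and 64 in a library.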
